A study of Homo sapiens with 10 samples.

Results

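The m6A peaks of 4 genes whose messages are made quickly and lost quickly, DUSP1, PLK2, JUN and MYC, were followed through 7 peak lists from cells labelled V16A, which is a castration-resistant prostate cancer line. The genes were selected on the same values that are described here: the presence, position, width and deposited p of their peaks, with the EU library set against the others. The deposited p is the authors' value in column 5 of a list without a header, read as a p because of its range and order. The counts and values of these 4 genes are therefore a description, with no test. The 4 genes are 4 of the 5000 gene names with a peak in any list, and they hold 14 of the 26273 peaks. In the study, fragmented RNA was pulled down with an antibody against N6-methyladenosine (m6A) and sequenced (MeRIP-seq). The pulled-down libraries were 1 named for EU and 40 min, 2 of hypoxia and 2 of normoxia, each with an input that was not analysed here. EU is read as ethynyl uridine, a nucleoside that marks newly made RNA. For the EU library no oxygen condition is labelled. Peaks in T and NK cell markers go against the labelled cell line. The counts of these and of prostate epithelial markers stand after the peaks of MYC. The labels are also silent on the level and duration of hypoxia and on whether replicates were separate cultures. Each condition also had 1 list of its own, called the hypoxia condition list and the normoxia condition list here, and how it was made was not given in the sources used here.

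Immediate early genes are switched on within minutes of a growth factor or stress signal, without new protein synthesis, and most of their mRNAs decay fast. DUSP1 encodes a phosphatase that turns off MAP kinases and so ends the signal that induced it. PLK2 is a polo-like kinase of the cell cycle and the stress response. JUN is a subunit of the AP-1 transcription factor, and MYC is a transcription factor of growth and proliferation. Methyl groups are added to adenosines of a transcript in the nucleus, mostly in long internal exons and near the stop codon, and readers of the YTH family can bring such mRNAs to decay.

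Promoter windows are shown for DUSP1, PLK2 and JUN because induction of such genes starts there and because 1 peak of JUN reached into its window. They are RefSeq sequences of GRCh38.p14, from 250 bases before to 50 bases after the gene's start, all on the minus strand and printed 5′ to 3′ along the gene. The window of MYC was not read, so nothing is said about it here. The DUSP1 window is chr5:172771146-172771445, the PLK2 window chr5:58460037-58460336 and the JUN window chr1:58783998-58784297. Capitals mark matches, on either strand, to the cyclic AMP response element TGACGTCA, its 5-base core TGACG, the JUN promoter's TGACATCA, the AP-1 element TGANTCA, the TATA box TATAAA, or the CArG box of serum response factor.
DUSP1: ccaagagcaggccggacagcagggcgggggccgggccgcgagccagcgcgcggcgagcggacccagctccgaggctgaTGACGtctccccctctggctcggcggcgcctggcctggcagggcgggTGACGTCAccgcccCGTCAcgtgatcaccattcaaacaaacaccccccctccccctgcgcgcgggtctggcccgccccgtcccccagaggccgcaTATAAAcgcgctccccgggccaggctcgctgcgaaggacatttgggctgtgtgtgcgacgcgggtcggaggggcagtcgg
PLK2: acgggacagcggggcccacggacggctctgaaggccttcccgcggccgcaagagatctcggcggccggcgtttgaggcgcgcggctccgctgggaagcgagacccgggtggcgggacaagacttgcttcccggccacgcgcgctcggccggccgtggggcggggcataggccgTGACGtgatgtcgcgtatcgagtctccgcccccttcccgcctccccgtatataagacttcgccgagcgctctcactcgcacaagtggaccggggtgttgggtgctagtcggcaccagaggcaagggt
JUN: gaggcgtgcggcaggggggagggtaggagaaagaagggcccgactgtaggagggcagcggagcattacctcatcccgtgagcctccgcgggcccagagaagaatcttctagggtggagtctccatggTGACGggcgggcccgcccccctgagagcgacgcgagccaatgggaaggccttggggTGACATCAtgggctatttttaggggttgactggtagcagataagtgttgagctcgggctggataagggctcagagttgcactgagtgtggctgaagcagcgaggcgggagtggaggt

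The cyclic AMP response element stood once in DUSP1, 125 bases before the gene's start, and 1.85% of the 35116 RefSeq promoter windows hold it. Its core TGACG overlapped that match on both strands. The core also stood 172 and 111 bases before the DUSP1 start, 77 bases before the PLK2 start and 123 bases before the JUN start. Such a core is common, with a match in 24.6% of all windows. JUN alone of the 3 held TGACATCA, 67 bases before its start, which 2.61% of windows hold. A TATAAA stood 30 bases before the DUSP1 start (11.5% of windows), and the AP-1 element and the CArG box had no match in the 3 windows (7.71% and 1.29% of all windows). A letter match is a description of the window and says nothing about binding.

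The EU library had 5044 peaks in 2389 genes. The hypoxia libraries had 2879 and 6621 peaks (replicates 1 and 2), and the normoxia libraries 212 and 1563. Reads were not analysed, so the depth behind each list is unknown, and no peak in a gene means neither that its RNA lacked m6A nor that the gene was silent. Peak widths were close to steps of 50 bases: 87.9% of EU peaks and 85.4% to 93.1% of the peaks of the other lists lay within 2 bases of such a step, which limits how finely edges can be compared.

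DUSP1 had 1 peak, in the EU library, and none in the other 6 lists. It lay on chromosome 5 from 172768582 to 172768976 (hg38, minus strand), 395 bases in 1 exon block. Counted along the gene, which spans 172768096 to 172771195 in RefSeq, these were bases 2220 to 2614 of 3100, so the peak ended 486 bases before the gene's end. Its deposited p was 1.1e-09. It ranked 29 of the 5044 EU peaks by smallest p, and by its best peak DUSP1 ranked 20 of 2389 EU genes. In width it was 1.98 times the EU median of 199 bases, and 18.3% of EU peaks were wider.

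PLK2 likewise had 1 peak, in the EU library alone. It ran from 58454181 to 58454913 on chromosome 5 (hg38, minus strand), in a gene of 6105 bases from 58453982 to 58460086. The peak covered 597 bases in 2 exon blocks, 1 of 594 bases and 1 of 3 bases (58454911 to 58454913), with 136 bases between them. Its downstream edge stood 199 bases from the gene's end, the nearest to a gene's end of the 14 peaks. The deposited p was 2.9e-09, which ranked 34 in the EU list, and 6.84% of EU peaks were wider. Among the 1101 genes found in the EU library but in no hypoxia or normoxia library, DUSP1 ranked 5 and PLK2 ranked 7 by deposited p.

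**Figure D1:**
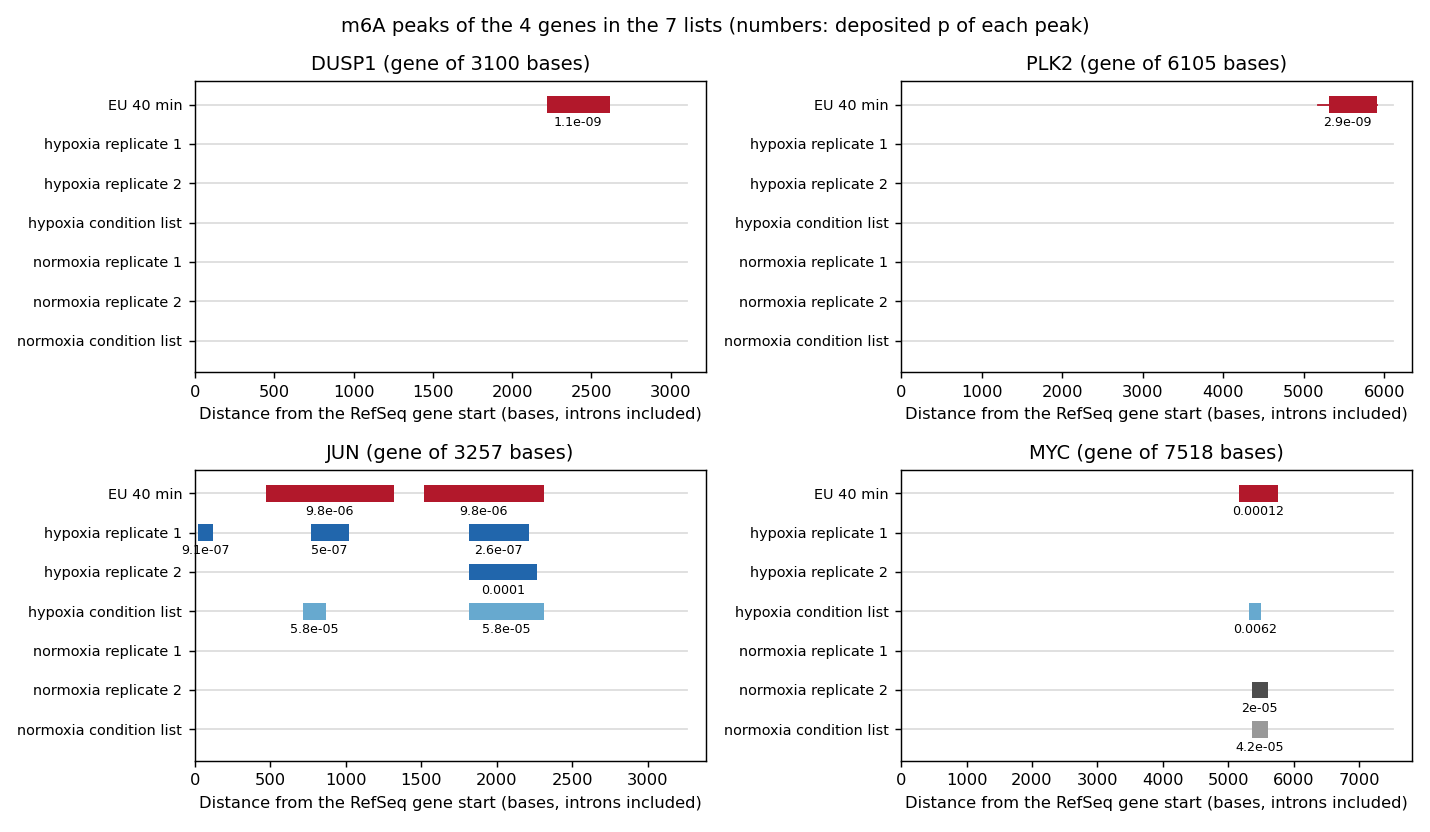
Peaks of DUSP1, PLK2, JUN and MYC in the 7 lists, drawn along each gene from its RefSeq start (bases, introns included), with the deposited p under each peak. Only the EU row holds a peak in all 4 panels, DUSP1 and PLK2 have no other row filled, JUN adds the 3 hypoxia rows, and MYC adds both condition lists and normoxia replicate 2.

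JUN had peaks in the EU library and in both hypoxia libraries, and none in either normoxia library or the normoxia condition list. Normoxia replicate 1 is the shortest list, with 212 peaks. The gene, which has no intron, spans 3257 bases of chromosome 1, from 58780791 to 58784047 (minus strand). The EU library had 2 peaks, from 58781735 to 58782533 (799 bases) and from 58782732 to 58783579 (848 bases). They left 198 bases between them and together covered 1647 bases, from base 469 to base 2313 of the gene. Both had a deposited p of 9.8e-06, a value shared by 15 EU peaks, and 29% of the EU list had smaller ones.

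Hypoxia replicate 1 had 3 JUN peaks. They lay from 58781835 to 58782234 (400 bases, deposited p of 2.6e-07), from 58783031 to 58783280 (250 bases, 5e-07) and from 58783928 to 58784028 (101 bases, 9.1e-07). By smallest p the first of these ranked 62 of 2879 peaks in that list. Hypoxia replicate 2 had 1 JUN peak, from 58781785 to 58782234 (450 bases), at a deposited p of 1e-04, with 66.4% of its 6621 peaks at smaller values. The hypoxia condition list had 2, from 58781735 to 58782234 (500 bases) and from 58783181 to 58783330 (150 bases), both at 5.8e-05.

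The JUN site nearest the gene's end was thus called in every list with a JUN peak, and the same upstream edge, base 1814 of the gene, was given by both hypoxia libraries and the hypoxia condition list. The EU peak there began 299 bases further upstream. Of the bases covered in the hypoxia libraries, 400 were shared, which is 53.3% of replicate 1 and 88.9% of replicate 2. The middle site was found in the EU library, in hypoxia replicate 1 and in the hypoxia condition list, and the peak of the condition list shared 100 bases with that of replicate 1. Hypoxia replicate 2 had no peak there. Of the JUN bases covered in hypoxia replicates 1 and 2, 86.6% and 100% lay in the EU peaks. The shared bases made up 39.5% and 27.3% of the EU bases. The EU peaks covered 1647 of the 3257 bases of the gene, and their width was among the values that chose it. Over all genes, 47.3% and 34.2% of the overlapping peaks of hypoxia replicates 1 and 2 lay inside an EU peak, which is a share of peaks and not of bases.

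At the start of JUN, hypoxia replicate 1 alone had a peak, at bases 20 to 120 of the gene. It was the 1 peak of the 9 from the other lists that lay outside the EU peaks, 348 bases from the nearest, and 31 of its bases were the last 31 of its promoter window. Peaks that reach the first 50 bases of a gene were few in every list: 3.58% of the peaks of hypoxia replicate 1 that matched a promoter window by name and strand, 3.97% of those of hypoxia replicate 2, 4.05% and 1.99% of those of normoxia replicates 1 and 2, and 2.15% of EU peaks.

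MYC had 1 peak in the EU library, none in the hypoxia libraries, 1 in normoxia replicate 2 and 1 in each condition list. The gene spans 7518 bases on chromosome 8, from 127735434 to 127742951 (hg38, plus strand). The EU peak ran from 127740598 to 127741188 (591 bases, deposited p of 0.00012), bases 5165 to 5755 of the gene. Normoxia replicate 2 had its peak from 127740795 to 127741041 (247 bases, deposited p of 2e-05), and the normoxia condition list gave the same bases at 4.2e-05. In the hypoxia condition list the peak ran from 127740745 to 127740942 (198 bases) at a deposited p of 0.0062, and 95.2% of that list had smaller values.

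All 4 MYC peaks were at 1 place. The hypoxia condition peak shared 148 bases with the normoxia condition peak, 74.7% of the hypoxia peak and 59.9% of the normoxia peak, and all 3 narrower peaks lay wholly inside the EU peak. Over all genes, 35.7% of the overlapping peaks of the hypoxia condition list, 56.6% of those of normoxia replicate 2 and 58.8% of those of the normoxia condition list lay inside an EU peak. With no MYC peak in either hypoxia library, the hypoxia condition list differed from its own replicates. That was not rare: of the 464 genes with a peak in normoxia replicate 2 and in none of the other 3 libraries, 19.6% had a peak in the hypoxia condition list and 65.3% in the normoxia condition list.

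The lists also differed in markers of cell types. Of 14 prostate epithelial markers, the EU library found 8, hypoxia replicates 1 and 2 found 2 and 5, and normoxia replicates 1 and 2 found 1 and 6. KLK3, HOXB13, FOXA1 and EPCAM were among those with an EU peak, and FOLH1, STEAP2, KRT8, KRT18 and CDH1 had none in any list. Of 10 T and NK cell markers, among them CD3E, CD247 and PTPRC, the EU library found 9, hypoxia replicates 1 and 2 found 8 and 9, and normoxia replicates 1 and 2 found 4 and 0. By number, the EU and hypoxia libraries that hold the JUN peaks are those with most T and NK markers. They are also the longest of the libraries, which together had peaks in 4327 genes. The EU library found 2389 of these genes (55.2%), and hypoxia replicates 1 and 2 found 1258 and 2151. Normoxia replicates 1 and 2 found 139 and 897. Normoxia replicate 1 thus had 4 of the T and NK markers among only 139 genes, and it had no JUN peak. Normoxia replicate 2, which holds the MYC peak, had none of these markers. Peaks in T and NK markers go against the label of a prostate cancer line, while those in KLK3, HOXB13 and FOXA1 fit it. The lack of a peak in KRT8, KRT18, CDH1 and FOLH1 does not show that these genes were silent. In bulk RNA, fewer cells of a type and less RNA per cell cannot be told apart. The part of these markers in the JUN and MYC patterns was not tested.

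In JUN and MYC, EU peaks were wider than each peak they overlapped. The 5 EU peaks of the 4 genes had 395 to 848 bases, and the 9 peaks of the other lists 101 to 500. Over the JUN sites the EU peak was 2.00 and 3.39 times as wide as the overlapping peaks of hypoxia replicate 1, 1.78 times as wide as that of replicate 2, and 1.60 and 5.65 times as wide as those of the hypoxia condition list. For MYC the ratio was 2.98 to the hypoxia condition peak and 2.39 to both the normoxia replicate 2 peak and the normoxia condition peak. Over all genes, the EU peak was the wider in 48.2% of 2020 overlapping pairs with the hypoxia condition list (median ratio 1.00), 61.7% of 896 with hypoxia replicate 1 (median ratio 1.49) and 47.1% of 1778 with hypoxia replicate 2 (median ratio 1.00). With normoxia replicate 2 it was the wider in 75.9% of 936 pairs (median ratio 1.98) and with the normoxia condition list in 76.1% of 1143 (median ratio 1.97), beside the 2.39 of MYC in both. With the 50% of each list that has the smallest p, no condition peak overlapped an EU peak of JUN or MYC. In the whole lists, 3 EU peaks of these genes were overlapped. Of all EU peaks, 33.9% shared bases with a peak of the whole hypoxia condition list. With the whole normoxia condition list this share was 18.4%. Neither share was computed for the 50% lists, so the loss of the 3 overlaps cannot be judged against all EU peaks. Several peaks lay just past the 50% cut. Both JUN condition peaks had 51.8% of their list at smaller values. For the MYC peaks of the normoxia condition list and the EU library these shares were 51.9% and 50.4%. Width was among the values that chose the genes.

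**Figure D2:**
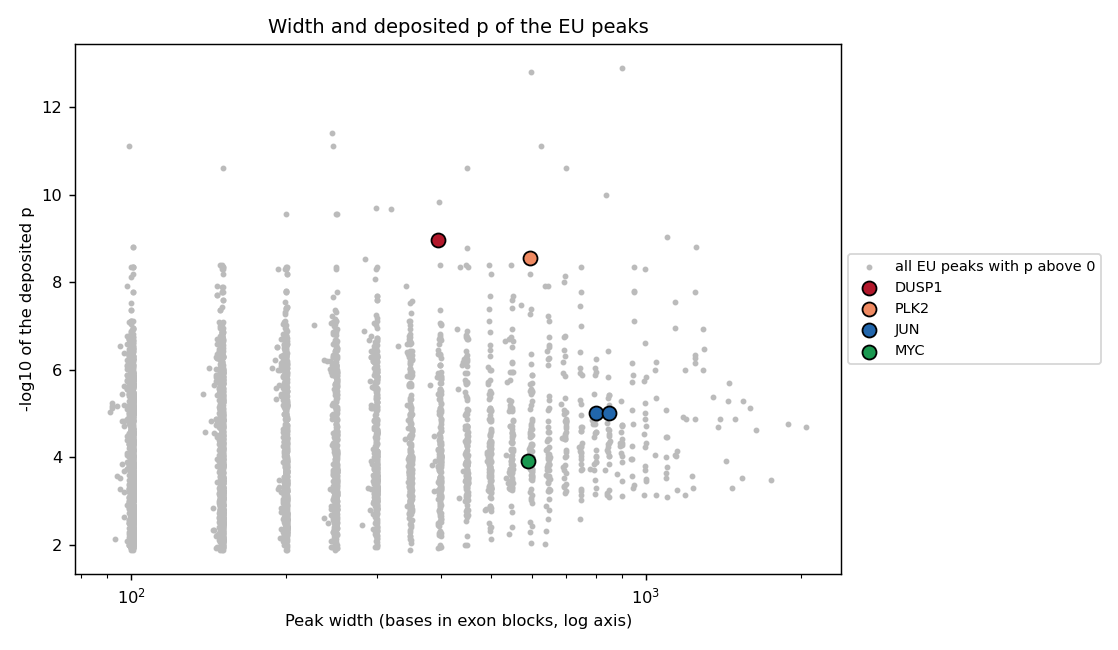
Width in exon-block bases (log axis) against −log10 of the deposited p for the EU peaks with p above 0, with the 5 peaks of the 4 genes in colour. DUSP1 and PLK2 stand high at 8.96 and 8.54, both JUN peaks lie far to the right at 5.01, and MYC is at 3.92, near the middle of the list.

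Set against all genes, the presence of a peak in the EU library was common. All 4 genes had one, and so did 55.2% of the 4327 genes with a peak in any of the 5 libraries. DUSP1 and PLK2 were 2 of the 1101 genes that were found by the EU library and missed by the 4 others, which are 25.4% of the same genes. JUN was the 1 of the 4 with a peak in both hypoxia libraries and neither normoxia library, a class of 15.3% of the 3226 genes with a peak in any of the 4 libraries. MYC belonged to the 14.4% with a peak in normoxia replicate 2 and none of the other 3. Since these patterns chose the genes, nothing is read from the counts. DUSP1 and PLK2 stayed without a peak in the condition lists too, as did most of the 1101 genes, of which 19.6% had one.

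A wider list of 86 immediate early and fast-turnover genes was then looked up in all lists. Of these, 49 had a peak in any of the 5 libraries, and 45 of the 49 (91.8%) had one in the EU library, beside 55.2% of all genes. Without DUSP1, PLK2, JUN and MYC the count was 41 of 45 (91.1%). With the 50% of each list that has the smallest p it was 26 of 36 (72.2%), beside 43.8% of all genes. With each library shortened to its 212 peaks of smallest p it was 4 of 8 (50%), beside 19.7%.

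Presence in the EU library and no other library was close to the background, at 15 of 49 (30.6%) beside 25.4%. Without hypoxia replicate 2 it was 25 of 49 (51%), beside 42.3% of all genes. Both hypoxia libraries and neither normoxia library had a peak in 8 of the 34 genes found in any of the 4 (23.5%), JUN, SOCS1 and IRF1 among them, beside 15.3% of all genes. This share did not keep its side of the background. Without hypoxia replicate 1 it was 18 of 34 (52.9%), below the 63.7% of all genes, and with the condition lists in place of the libraries it was 21 of 37 (56.8%), below 62.8%. Without normoxia replicate 2 it was 13 of 28 (46.4%), above the 22.3% of all genes. The reverse class, both normoxia libraries and neither hypoxia library, held 0 of the 34 early genes and 5 of the 3226 genes (0.155%), and normoxia replicate 1 had a peak in 1 early gene.

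The early genes were also looked up among genes that the other libraries found. Of the 34 early genes with a peak in any of the hypoxia and normoxia libraries, 30 (88.2%) had an EU peak, beside 39.9% of 3226 genes. For genes in 1 of the 4 libraries the shares were 14 of 16 early genes (87.5%) and 31.4% of all genes. For genes in 2 of the 4 they were 11 of 12 (91.7%) and 52.6%. For genes in 3 of the 4 they were 5 of 6 (83.3%) and 82.3%. Of the markers with a peak in any of the hypoxia and normoxia libraries, 6 of 7 prostate markers (85.7%) and 8 of 9 T and NK markers (88.9%) had an EU peak, shares like the 88.2% of the early genes. Their part in the EU share was not tested. A single EU library gives the shares no check by replicates, and the early list was chosen with results of these data known. Expression, on which the calling of peaks depends, was not part of the data used.

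**Figure D3:**
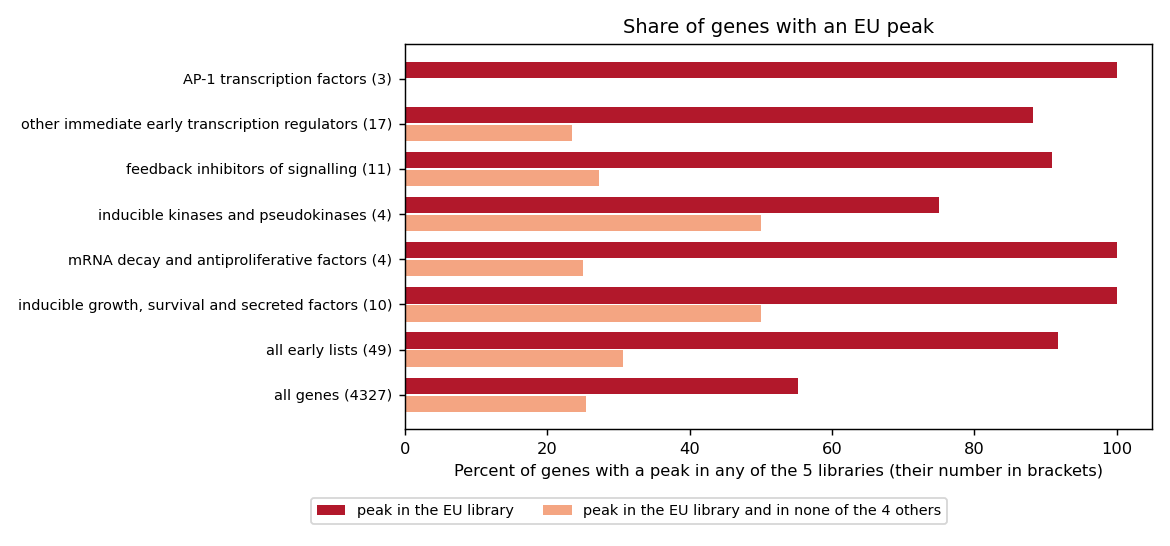
Percent of genes with a peak in the EU library (dark bars) and in the EU library and none of the 4 others (light bars), of the genes with a peak in any of the 5 libraries, whose number is in brackets. Each early group stands above all genes in the dark bars, from 75% to 100% beside 55.2%, while the light bars range from 0% to 50% around 25.4%.

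Of 9 AP-1 genes, JUN, JUNB and JUND had peaks, each also in the EU library, and FOS, FOSB, FOSL1, FOSL2, ATF3 and MAFF had none in any list. JUND, another AP-1 subunit, had 2 EU peaks, 3 and 2 in hypoxia replicates 1 and 2, and 2 in normoxia replicate 2. Its best EU peak had a deposited p of 0, the smallest value in the list, which 11 EU peaks had. JUNB had 1 EU peak, 2 in hypoxia replicate 2 and none in the normoxia libraries, with 1 in the normoxia condition list. The normoxia side thus differed between the 3 JUN genes: 2 of them had a normoxia list with a peak, and JUN had none.

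Among 24 other immediate early regulators, 17 had a peak in the 5 libraries and 15 in the EU library. EGR1, a zinc finger factor that serum and growth factors induce, had 2 EU peaks and no other, at a best deposited p of 0.00035. HES1, a repressor downstream of Notch, had 1 EU peak at 1.3e-05 and no other. IER5 had 3 EU peaks, 5 in hypoxia replicate 2 and 1 in normoxia replicate 2. KLF2 and KLF6, Krüppel-like factors, had 4 and 2 EU peaks, 4 and 9 in hypoxia replicate 2, and none in the normoxia libraries. IRF1, an interferon-induced factor, had no EU peak but 1 and 5 in the hypoxia libraries. ID3, an inhibitor of basic helix-loop-helix factors, had 1 peak, in normoxia replicate 2, and 1 in the normoxia condition list.

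Relatives of DUSP1 showed other patterns than DUSP1 itself. Of the 8 DUSP genes in the list, DUSP2 had no peak and 6 of the other 7 had an EU peak. DUSP8 was the other one with an EU peak (2, best p of 0.00046) and none in the 4 libraries, although it had 1 in the hypoxia condition list. DUSP6, which acts on ERK, had no EU peak, 1 and 3 in hypoxia replicates 1 and 2, and 2 in normoxia replicate 1. DUSP4, DUSP5, DUSP10 and DUSP16 had 1, 2, 1 and 4 EU peaks and 9, 3, 3 and 4 in hypoxia replicate 2. In normoxia replicate 2, DUSP16 had 5 peaks, DUSP4 had 2, and DUSP5 and DUSP10 had none. The normoxia condition list had 2 for DUSP16 and 3 for DUSP4. Of the other inhibitors of signalling, SOCS1, which damps cytokine receptors, had 2 EU peaks, 3 in each hypoxia library and none in normoxia. TNFAIP3, an inhibitor of NF-kB, had 1 EU peak at 0.00028 and no other.

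Inducible kinases numbered 7, and 4 had a peak. PLK3, another polo-like kinase, had none in any list. TRIB1, a pseudokinase, had 2 EU peaks (best p of 5.5e-07), none in the 4 libraries and 2 in the hypoxia condition list. PIM3 had no EU peak, 3 in normoxia replicate 2 and 2 in the normoxia condition list. Of the 21 growth, survival and secreted factors, 10 had a peak, all 10 in the EU library. HBEGF, a ligand of the EGF receptor, had 1 EU peak at 2.3e-06 and no other, and CCNL1, a cyclin of RNA processing, 1 at 0.00024 and no other. GADD45G, a stress sensor, had 1 EU peak at 6.5e-06 and 1 in the normoxia condition list. LIF, a cytokine, had 7 EU peaks, 9 in hypoxia replicate 2 and 1 in normoxia replicate 2. All 4 genes found of the 6 mRNA decay and antiproliferative factors had an EU peak.

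**Figure D4:**
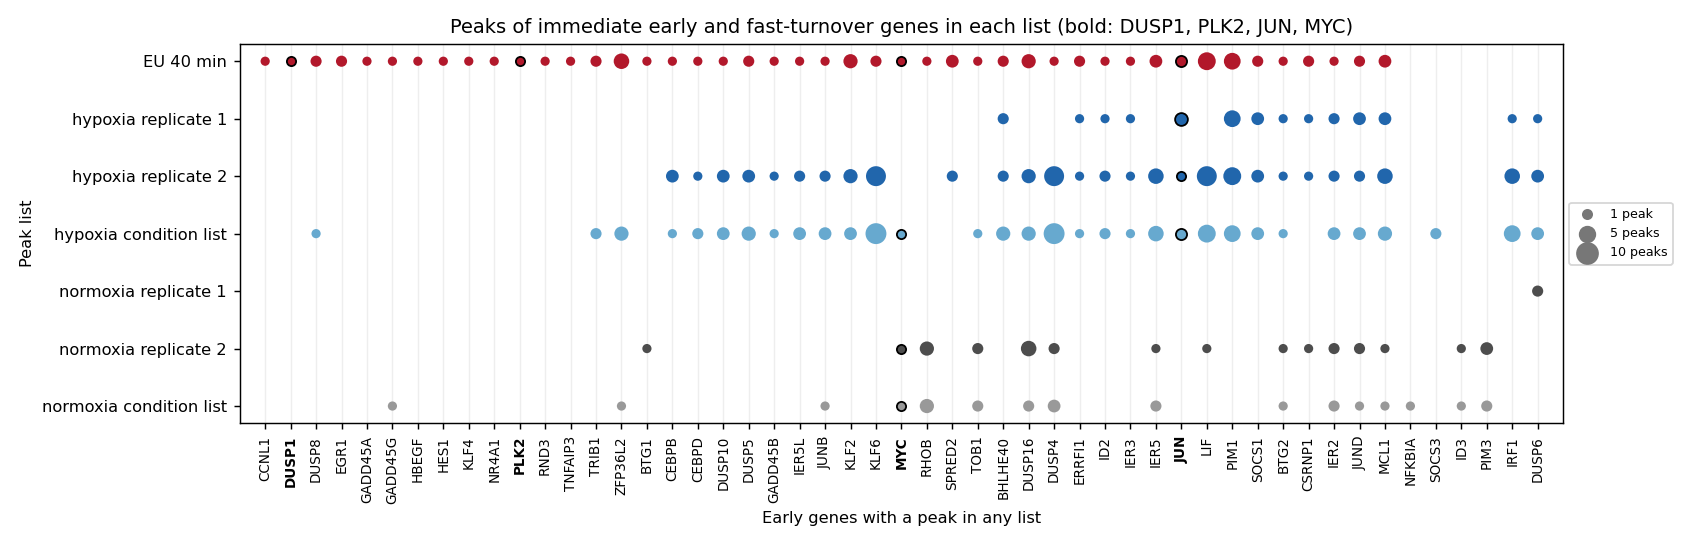
Number of peaks (dot area) of the 51 early genes with a peak in any of the 7 lists, with lists as rows and genes as columns. The EU row is filled for 45 genes, hypoxia replicates 1 and 2 for 14 and 28, and normoxia replicates 1 and 2 for 1 and 15.

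The pattern of DUSP1 and PLK2, a peak in the EU list and in none of the other 6, was shared by 884 genes (17.7% of 5000), and 462 of these also had a single EU peak. Closest to DUSP1 by deposited p were PLK2, which differed by 0.42 on the −log10 scale, CTD-2538C1.2 (0.44) and RP11-10N23.4 (0.74). Closest to PLK2 were CTD-2538C1.2 (0.01), CIRBP-AS1 and DUSP1 (both 0.42). JUN shared its pattern with 164 genes (3.28%), none with the same numbers of peaks in the 7 lists, and the nearest were PFN1, NCOA2 and HIST1H3J, each 2 peaks away in all. MYC shared its pattern with 45 genes (0.9%), of which TRUB2, PODXL2 and SLC39A14 had the same numbers of peaks. Likeness was measured over the 7 lists, and the condition lists may share reads with the libraries.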

How the data were processed

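Peaks were measured by MeRIP-seq in 5 pulled-down libraries. STAR and hg38 are named, without a version, in the submitters' processing notes. How peaks were called and thresholded, and whether inputs and strand were used, was not given in the sources used here. Lists as deposited have 12 BED columns without a header, and column 5, which runs from 0 to at most 0.013 in ascending order, was read as the authors' p-value of each peak. That reading rests on the values.

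Members were the rows with column 4 equal to their name. Coordinates are printed 1-based. Width is the sum of exon blocks, and overlap means at least 1 shared exon-block base in the same gene and strand. Gene spans and promoters came from RefSeq (GRCh38.p14). In the likeness measure a deposited p of 0 stood as 1e-17. The 4 members, the 86 early genes (all 86 known to RefSeq, older names included) and the markers were chosen with earlier results of these data known. The rule for naming early genes took up to 10 with an EU peak and none in the 4 other libraries, up to 6 with both and up to 6 with no EU peak, by the deposited p (the last first by number of libraries), with the paralogs of the members. JUNB, DUSP2, DUSP4, DUSP5, DUSP10, DUSP16 and PLK3 are such paralogs. No test was run: 1 EU library has no replicate, and the members were selected on these values. The overlap code was tested on simulated lists. Python 3.11.15 and pandas 2.3.3 were used.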

Additional observations from a re-analysis of the deposited data

How the results depend on the processing

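Of 49 alternatives over 12 counts, 36 stayed within 1.5 times the reported count. Some of these could not fall: the members had no peak in normoxia replicate 1, so its 2 alternatives could only give 0 again. Leaving out a library can only keep or raise the counts of genes in the EU library alone. The members found in the EU library alone of the 5 libraries numbered 2 in 7 of the 8 alternatives and 3 without normoxia replicate 2. That count could not fall below 2 in any of them. DUSP1 and PLK2 had no peak in another list, and their EU peaks (ranks 29 and 34, 395 and 597 bases) passed every cut. Rank and width were among the values that chose them, so the unchanged count is no sign of stability. When each list was reduced to its 50% of peaks with the smallest deposited p, the 3 EU peaks of JUN and MYC overlapped by a condition list came to 0, as did the members' peaks in hypoxia replicate 2 (1), the hypoxia condition list (3) and the normoxia condition list (1). The JUN condition peaks and the MYC normoxia condition peak lay just past that cut. The share of all EU peaks overlapped by a condition list was not computed at that cut. In the same reduced lists the early genes with an EU peak (45) came to 26. Those with peaks in both hypoxia libraries and neither normoxia library (8) came to 2 of 21 (9.52%), close to the 9.1% of all genes. With each library shortened to 212 peaks the EU count came to 4 and the hypoxia count to 1 of 6 (16.7%), beside 3.13% of all genes. Early genes in the EU library alone (15) then came to 2 of 8 (25%), beside 15.3%. With the condition lists in place of the libraries the hypoxia count was 21. Without 1 library it ranged from 8 to 18, and the EU-only count from 15 to 25. Shorter lists hold fewer genes by construction. For the condition lists the cause was not tested. No paired analysis was made, since no test was run. The labels number the replicates without saying that hypoxia and normoxia replicates form pairs. Unknown depth limits every absence of a peak.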
